A study of Mus musculus with 16 samples.

Results

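The genes described here are 8 claudins (Cldn1, Cldn3, Cldn4, Cldn5, Cldn6, Cldn7, Cldn11 and Cldn12) and occludin (Ocln), 9 in all, followed through a stepwise induction of pluripotency in mouse cells. Every probe whose gene symbol was on this list was taken from the array, whatever its values. Of the 9 genes, 8 had a probe, with 1 probe each, and all 8 passed the detection filter and were tested among 9455 genes. No probe carried the symbol of Cldn5, the main claudin of blood vessel endothelium, which is not analysed here.

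Claudins are small membrane proteins that span the membrane several times and join between neighbouring cells into the strands of tight junctions. Which claudins a cell makes sets which ions and small molecules pass between cells. Occludin is a further transmembrane protein of the same strands. In the mouse embryo, tight junctions first seal the outer layer of the blastocyst, and fibroblasts, which are mesenchymal, lack the continuous strands of an epithelium.

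Total RNA was measured on Illumina BeadChip arrays, with 1 array for each of 16 culture dishes in 4 groups of 4. MEF were embryonic fibroblasts of strain CD1, grown in DMEM with 10% serum. OKM cells (titled 3F) were the intermediate stage of the induction and iPS cells (titled 3F-SOX2) were induced pluripotent stem cells, both also of strain CD1. ES cells (titled R26) were embryonic stem cells of strain 129, so that strain and cell type cannot be told apart in any comparison with ES. OKM, iPS and ES cells shared a medium with 15% serum, 100 µM beta-mercaptoethanol and 10 ng/ml LIF. It also held nonessential amino acids, L-glutamine and HEPES, each at 2 mM. These cells grew on MEF feeders that mitomycin C had stopped from dividing. Medium and feeders therefore cannot be told apart from cell type in any comparison with MEF. The labels do not say how much feeder RNA was collected with the cells, how the factors were delivered, or whether the dishes of a group came from separate derivations, so p-values measure the spread between dishes.

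A raw intensity is the mean brightness of a probe's beads with background left in, and a log2 level is that intensity after background correction and quantile normalization. Detection means a detection p-value under 0.01 on that array. A gene was called higher or lower when its adjusted p in limma was under 0.05 over all tested genes and its fold change was at least 2. Where a gene was detected on none of a group's 4 arrays, its level there is only a bound. The fold is then given as "at least", with the dim group set on each array to the brighter of the gene's own level and the dimmest detected probe. Calls rest on the fitted levels, so the bound of a called gene can lie under 2-fold. Levels are not compared between genes, since each was read by a different probe. In bulk RNA, fewer cells of a type and less RNA per cell cannot be told apart.

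Cell type markers bear on how the claudins are read. The fibroblast markers, 18 of 20 tested, had summed linear levels of 244366 to 256635 in MEF, 58814 to 65212 in OKM, 41655 to 46793 in iPS and 13517 to 26634 in ES, and their brightest genes Acta2, Sparc and Vim were detected on every array. The pluripotency markers, 11 of 12 tested, ran from 1208 to 1370 in MEF and 3965 to 4386 in OKM, where Esrrb and Utf1 were detected on no array, against 121598 to 126239 in iPS and 139382 to 149490 in ES. Their brightest genes were Dppa5a, Pou5f1 and Dnmt3l, and Pou5f1 had a log2 level of 11.59 in OKM, against 5.27 in MEF. Of the 11, 5 were called higher and 1 lower from MEF to OKM, beside 16.1% and 15.8% of all tested genes. Klf2 went the other way, from 9.88 in MEF to 6.91 in OKM. The labels do not say which factors were delivered, nor whether the probes of Pou5f1 or Klf4 read a delivered copy. The epithelial markers, 11 of 14 tested, ran from 1517 to 1569 in MEF, 4230 to 4597 in OKM, 7587 to 8396 in iPS and 5671 to 6566 in ES, with Esrp1, Krt19 and Krt8 the brightest, and Cdh1 was among the 7 that no MEF array detected. By gene, 6 were called higher and 2 lower from MEF to OKM, beside 16.1% and 15.8% of all tested genes. Cdh3, the brightest of them in MEF at 10.11, was detected on no OKM array, and Krt7 fell from 7.02 to 5.91. These lists moved with the groups, and their part in the results was not tested.

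Cldn3 and Cldn4 rose at the step from MEF to OKM, Cldn6 at the step from OKM to iPS, and Cldn11 rose and then fell. The 250 bases upstream of an annotated transcript start of each (RefSeq, GRCm38.p6) are shown so that the promoters of genes called at different steps can be set side by side. Capitals mark matches, on either strand, to the letters CAGGTG of an E-box, to the CCAAT box, and to the letters GGGCGG of a GC box.
Cldn3, chr5:134985964-134986213, plus strand: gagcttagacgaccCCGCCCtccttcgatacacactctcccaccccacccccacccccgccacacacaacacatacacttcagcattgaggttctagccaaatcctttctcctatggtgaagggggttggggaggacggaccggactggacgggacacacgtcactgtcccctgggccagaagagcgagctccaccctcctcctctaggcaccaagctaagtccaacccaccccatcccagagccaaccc
Cldn4, chr5:134946935-134947184, minus strand: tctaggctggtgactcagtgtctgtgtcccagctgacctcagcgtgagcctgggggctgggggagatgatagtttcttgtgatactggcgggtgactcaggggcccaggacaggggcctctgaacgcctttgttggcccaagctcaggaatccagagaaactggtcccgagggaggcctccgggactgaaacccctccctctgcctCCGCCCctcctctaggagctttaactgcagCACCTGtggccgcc
Cldn6, chr17:23679115-23679364, plus strand: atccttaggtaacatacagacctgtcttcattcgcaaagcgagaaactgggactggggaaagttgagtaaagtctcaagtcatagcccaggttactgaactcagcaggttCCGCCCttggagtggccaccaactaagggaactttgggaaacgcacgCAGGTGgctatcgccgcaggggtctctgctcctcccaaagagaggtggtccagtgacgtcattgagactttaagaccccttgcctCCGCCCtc
Cldn11, chr3:31149670-31149919, plus strand: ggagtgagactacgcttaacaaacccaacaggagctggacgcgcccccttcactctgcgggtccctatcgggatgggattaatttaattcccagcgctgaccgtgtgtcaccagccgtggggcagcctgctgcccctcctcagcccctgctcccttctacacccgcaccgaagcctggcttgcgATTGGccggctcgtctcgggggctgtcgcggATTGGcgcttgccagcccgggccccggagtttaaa
An E-box, the sequence bound by Snail and Zeb repressors, began 14 bases upstream of the start in Cldn4 and 93 bases upstream in Cldn6, and 17.2% of all 32851 windows of this length in the table hold this motif. E-boxes also stood in a window of Cldn7 (97 and 57 bases) and of Ocln (213 and 68 bases). Another window of each held none, and the main fit called neither gene in any comparison. Cldn11 held 2 CCAAT boxes, at 66 and 35 bases, a motif in 33.8% of windows. GC boxes, in 32.7% of windows, stood at 44 bases in Cldn4, at 140 and 8 bases in Cldn6 and at 236 bases in Cldn3. The Cldn6 window ends at base 23679364, past the annotated gene start at base 23679348, and its distances are counted from the window's end. The Grainyhead motif (AACNGGTT, in 1.79% of windows), the octamer (ATGCAAAT, in 1.6%) and the TATA box (TATAAA, in 12.4%) were searched and not found in the 4 windows shown. Cldn3 and Cldn4 are neighbours on chromosome 5, with no protein-coding gene annotated between them. Each match describes letters only.

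From MEF to OKM, the step in which the fibroblasts became the intermediate cells, Cldn3, Cldn4, Cldn11 and Cldn12 rose and Cldn1 fell. That is 4 of 8 members called higher, where 16.1% of all tested genes were called higher, and 1 of 8 called lower, where 15.8% of all tested genes were. Among the 4, Cldn3 was called on fitted levels below detection in MEF, and its bound was at least 1.92-fold. The median change of the 8 members was 1.03 on the log2 scale, against 0.02 for all tested genes. From OKM to iPS, Cldn4 and Cldn6 rose and Cldn11 fell, so that 2 of 8 were higher beside 7.28% of all genes and 1 of 8 was lower beside 5.94%. The members' median change at this step was 0.35, against -0.02 for all genes. Between iPS and ES, Cldn11 alone was called, higher in iPS, where 11.2% of all genes were higher and 7.28% were lower, and the median was -0.09 against -0.04. The members were chosen with earlier results of these data known, so these counts carry no test. The comparisons share their groups and are not independent of each other.

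**Figure D1:**
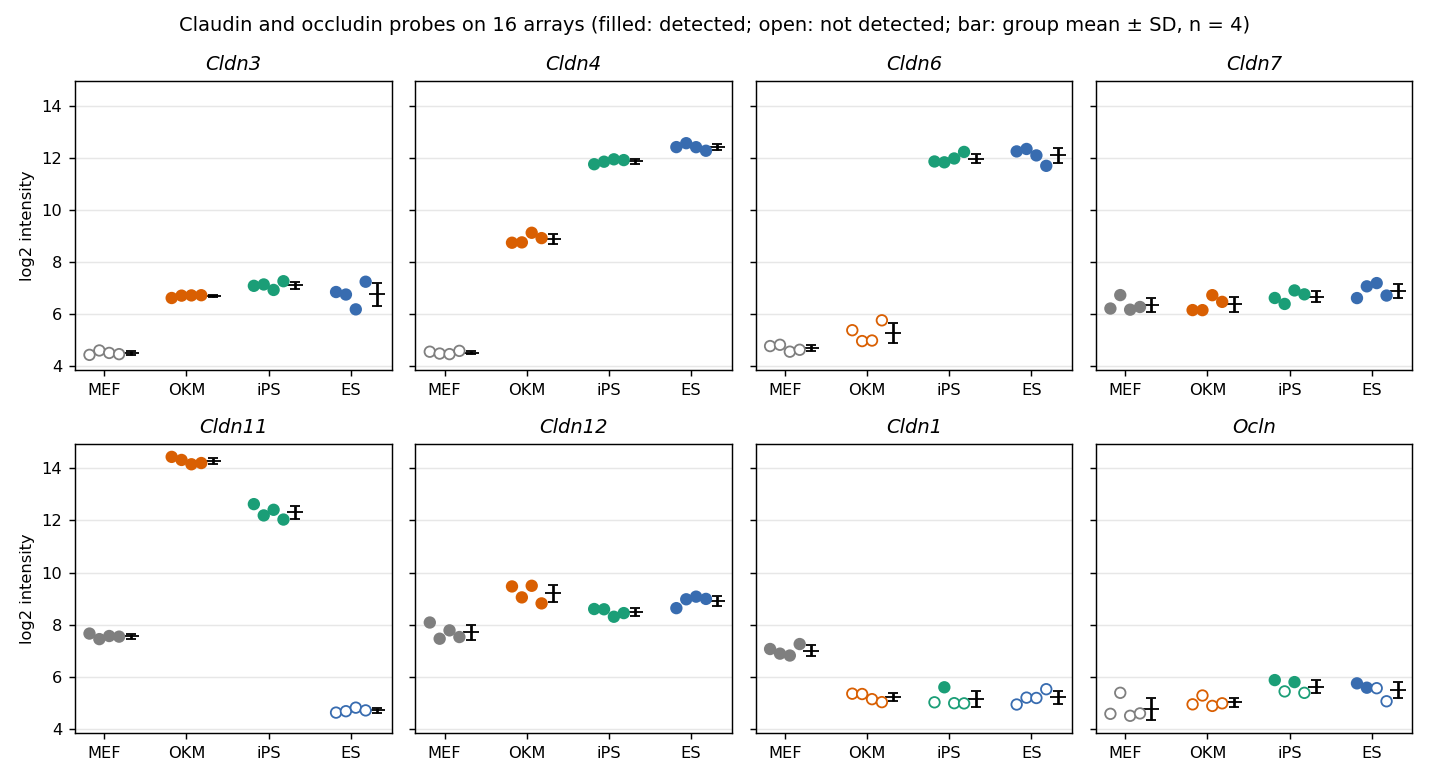
Log2 level (neqc scale) of the 8 measured genes, 1 panel per gene, with the 4 arrays of MEF, OKM, iPS and ES as points, filled where the probe was detected and open where it was not, and the bar giving the group mean with its SD. Cldn4 climbs at both steps from 4.53 in MEF to 8.88 in OKM and 11.86 in iPS, Cldn6 climbs from OKM to iPS, and Cldn11 peaks in OKM at 14.27 and is detected on no ES array.

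Cldn4 is a barrier-forming claudin of simple epithelia and, like Cldn3, a receptor for Clostridium perfringens enterotoxin. Its raw intensities were 94.3, 98.2, 89.7 and 103.4 on the 4 MEF arrays, 560.3, 529.6, 646.2 and 466.3 in OKM, 3896, 3271, 3586 and 4019 in iPS, and 5819, 6645, 5629 and 4856 in ES. The 4 groups did not overlap, and the probe was detected on all OKM, iPS and ES arrays and on no MEF array. Log2 levels were 4.53 ± 0.06 in MEF, 8.88 ± 0.18 in OKM, 11.86 ± 0.08 in iPS and 12.41 ± 0.12 in ES (SD, n = 4 each). OKM was at least 8.75-fold above MEF (fitted log2 change 4.35, SE 0.10, adjusted p = 5.96e-17). iPS was then 7.87-fold above OKM (log2 change 2.98, adjusted p = 5.44e-14). iPS lay 0.55 below ES (95% interval of the difference -0.75 to -0.34, adjusted p = 9.2e-05), short of the 2-fold needed for a call.

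Cldn3, its neighbour on chromosome 5, was dim throughout. Raw intensities were 86.7, 104.2, 92.6 and 96.5 in MEF, 192.4, 188.2, 193 and 163 in OKM, 247.4, 214.6, 204.8 and 264.4 in iPS, and 207.9, 211.6, 158.8 and 203.1 in ES. All 12 arrays of the later groups detected it and no MEF array did. Its log2 level was 4.51 ± 0.07 in MEF, 6.70 ± 0.05 in OKM, 7.11 ± 0.14 in iPS and 6.76 ± 0.44 in ES. OKM was at least 1.92-fold above MEF (fitted log2 change 2.19, SE 0.15, adjusted p = 5.83e-10). OKM and iPS differed by 0.41 (95% interval 0.09 to 0.73, adjusted p = 0.0318), which was under 2-fold, and OKM and ES by -0.06 (interval -0.39 to 0.26). Without background correction its change from MEF to OKM was 0.89 and was not called.

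Cldn6 is a claudin of early embryonic epithelia and, in human cells, a surface marker of undifferentiated pluripotent cells. Raw intensities were 103.9, 112, 95.2 and 105.3 in MEF and 122.7, 113.6, 113.9 and 124.4 in OKM, with no array detected in either group. They were 4216, 3212, 3666 and 4960 in iPS and 5176, 5756, 4474 and 3273 in ES, with every array detected. The gene therefore separated the arrays into 8 dark and 8 bright ones. iPS was at least 79.5-fold above OKM (fitted log2 change 6.69, SE 0.17, adjusted p = 2.11e-15), and ES was at least 80.6-fold above MEF. MEF and OKM differed by 0.58 on the log2 scale (adjusted p = 0.00546), but both lay below detection and no fold is given. iPS and ES overlapped, with means of 11.97 ± 0.18 and 12.09 ± 0.29 and a difference of -0.12 (95% interval -0.48 to 0.23, adjusted p = 0.555).

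Cldn11 forms the tight junctions of myelin sheaths, of Sertoli cells in the testis and of the inner ear. Raw intensities were 313.9, 253.2, 261.6 and 258.8 in MEF, then 21366, 20511, 17242 and 15521 in OKM, 7123, 4244, 4955 and 4399 in iPS, and 105.8, 103.6, 111.3 and 98.2 in ES. The groups did not overlap, OKM was the highest and ES was the only one below detection. Its log2 level rose from 7.56 ± 0.09 in MEF to 14.27 ± 0.13 in OKM, a 105.3-fold increase (log2 change 6.72, SE 0.11, adjusted p = 1.74e-18). It then fell 3.90-fold to 12.31 ± 0.26 in iPS (log2 change -1.96, adjusted p = 1.42e-10). iPS was at least 100-fold above ES (fitted log2 change 7.60, adjusted p = 1.6e-18) and 27.02-fold above MEF (log2 change 4.76, adjusted p = 1.49e-16). ES was also at least 3.71-fold below MEF.

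Because Cldn11 is a myelin gene, markers of myelinating glia were set beside it. Of 10 such markers 4 were tested. Their summed linear level was 3522 to 5392 in MEF, 2285 to 2530 in OKM, 1198 to 1295 in iPS and 444 to 508 in ES, and this sum was highest in MEF, where Pmp22 alone had a log2 level of 11.97. By gene, 2 of the 4 were called higher and 1 lower in OKM than in MEF, beside 16.1% and 15.8% of all tested genes. The median log2 change was 1.58, against 0.02 for all tested genes. In OKM against ES, 3 of the 4 were called higher and none lower, beside 18.0% and 16.5%, with a median of 2.76 against -0.01. Cnp, an enzyme of myelin-forming cells, had 7.60, 7.92, 7.56 and 7.85 in MEF, OKM, iPS and ES. Mag and Mog, proteins of central myelin, and Gjc3, a glial connexin, were detected on no array. Mal, a membrane protein of myelin and of epithelial apical transport, had log2 levels of 4.52 in MEF, 9.28 in OKM, 9.03 in iPS and 4.48 in ES, and was detected in OKM and iPS only. Mbp, a major myelin protein, had 7.26, 10.10, 8.25 and 6.69 in the same order. The part of such cells in the Cldn11 levels was not tested.

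Cldn1 is needed for the barrier of the epidermis. Raw intensities were 230.4, 198.6, 187 and 226.1 in MEF, and 107.3 to 129.9 over the 12 other arrays, of which 1 iPS array was detected. MEF lay above every other array. The log2 level was 7.01 ± 0.20 in MEF and 5.22 ± 0.16 in OKM, at least 2.56-fold lower (fitted log2 change -1.79, SE 0.15, adjusted p = 7.98e-09), and 5.15 ± 0.30 in iPS and 5.22 ± 0.24 in ES. Those 3 groups overlapped, and their differences from one another had adjusted p of 0.729 or more. Without background correction the change from MEF to OKM was -0.74 and was not called. Cldn1 ran opposite to Cldn3 over the arrays (Pearson r = -0.94 over 16 arrays in 4 groups, a description only).

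Cldn12 lacks the tail by which other claudins bind junction scaffolds, and it was detected on all 16 arrays. Raw intensities were 394.3, 255.1, 291.1 and 257.4 in MEF, 876.8, 623.1, 816.1 and 438.4 in OKM, 543.4, 431.8, 381.4 and 480.5 in iPS, and 494, 664.1, 596.7 and 515.7 in ES. On the log2 scale OKM, at 9.21 ± 0.33, was 2.81-fold above MEF, at 7.72 ± 0.28 (adjusted p = 2.09e-07). ES, at 8.92 ± 0.19, was called above MEF too (log2 change 1.20, adjusted p = 2.04e-06), and this call was lost without background correction (0.91). iPS, at 8.49 ± 0.14, lay 0.72 below OKM (adjusted p = 0.00114) and 0.77 above MEF (adjusted p = 0.000332), both short of 2-fold. OKM and ES overlapped, with a difference of 0.29 (95% interval -0.05 to 0.63).

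Cldn7, a claudin of the basolateral membrane that binds Epcam, passed no call in any of the 6 comparisons. It was detected on all 16 arrays at raw intensities of 149.5 to 242.6, with log2 levels of 6.35 ± 0.26 in MEF, 6.38 ± 0.28 in OKM, 6.67 ± 0.22 in iPS and 6.90 ± 0.28 in ES. OKM and MEF differed by 0.03 (95% interval -0.32 to 0.38). The widest difference, 0.55 between ES and MEF, had an adjusted p of 0.0061 but was under 2-fold, and the groups overlapped.

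Ocln was close to the detection limit. Raw intensities ranged from 92.2 to 127.5 in MEF and from 106.3 to 122.9 in OKM, with no array detected, and from 125.2 to 157.8 in iPS and 108.4 to 144.5 in ES, with 2 arrays detected in each. Log2 levels were 4.77 ± 0.41, 5.03 ± 0.18, 5.63 ± 0.25 and 5.50 ± 0.30 in that order. Since the MEF and OKM levels are only bounds, no fold is given for Ocln. In the main fit it was called in none of the 6 comparisons. The fitted difference between iPS and MEF was 0.86 (adjusted p = 0.000525). It passed the call without the MEF array of replicate 2 (1.07, adjusted p = 1.53e-05) and with the authors' normalized intensities (1.5, adjusted p = 0.000471). ES against MEF was called with those intensities (1.35, adjusted p = 0.000999) and with only the last 8 arrays of the table (1.03, adjusted p = 2.86e-05). MEF was below detection on every array, so these calls use levels that are only bounds there.

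**Figure D2:**
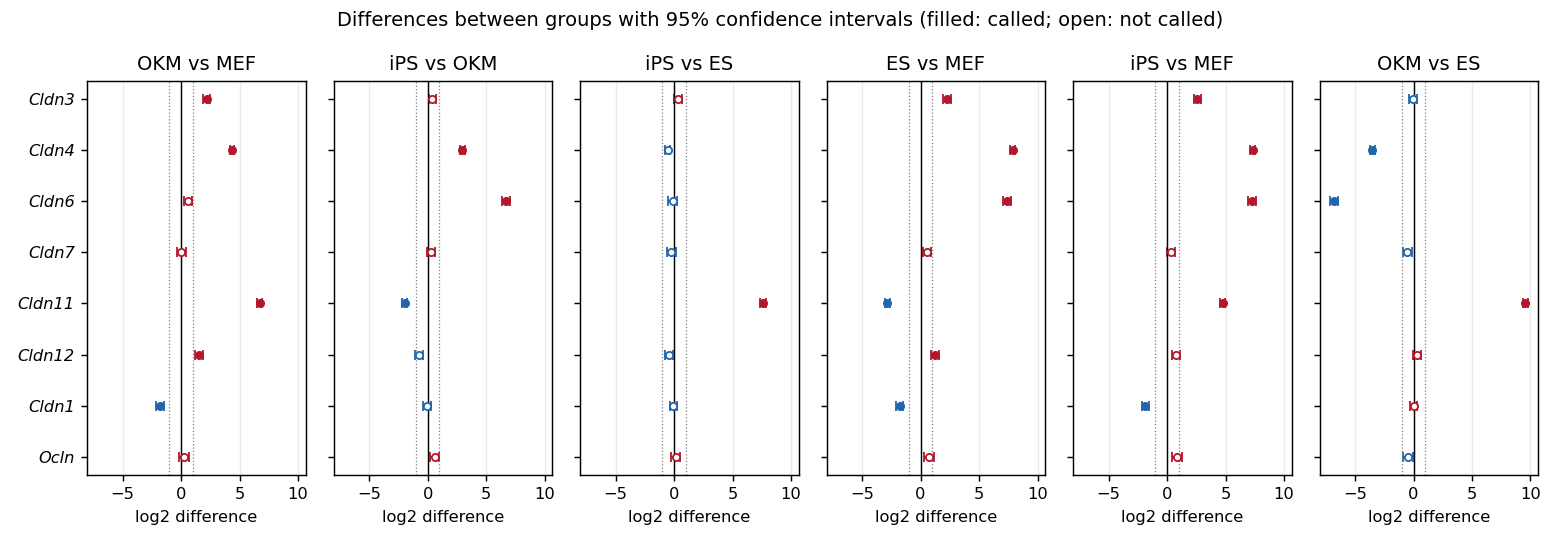
Log2 difference (x axis) of each measured gene in the 6 comparisons, 1 panel each, with bars for the 95% confidence intervals of the limma fit, filled points where the gene was called, red above 0 and blue below, and dotted lines at a 2-fold change. Cldn11 lies at 6.72 for OKM vs MEF and at -1.96 for iPS vs OKM, Cldn6 at 6.69 for iPS vs OKM, and Cldn7 and Ocln are open in every panel.

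In the comparisons that span both steps, Cldn3, Cldn4, Cldn6 and Cldn11 were called higher in iPS than in MEF, which is 4 of 8 beside 19.0% of all genes, and Cldn1 was called lower, 1 of 8 beside 17.5%. Cldn4 was at least 68.8-fold and Cldn6 at least 74.1-fold above MEF there. In ES against MEF, Cldn3, Cldn4, Cldn6 and Cldn12 were higher, 4 of 8 beside 24.2%, and Cldn1 and Cldn11 were lower, 2 of 8 beside 24.3%. In OKM against ES, Cldn11 was higher by at least 391-fold, 1 of 8 beside 18.0%, and Cldn4 and Cldn6 were lower, 2 of 8 beside 16.5%. The median changes of the members were 1.73 in iPS against MEF, 0.96 in ES against MEF and -0.26 in OKM against ES, where all tested genes had medians of 0.03, 0.04 and -0.01.

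The array also held 12 other claudin genes with 19 probes. Of these probes 13 were detected on no array, and 3 genes were tested. Cldn10, a claudin of kidney tubules and secretory glands, fell from 7.49 ± 0.09 in MEF, where all 4 arrays were detected, to 5.35 in OKM, 4.90 in iPS and 5.10 in ES, where none were. OKM was at least 3.57-fold below MEF (fitted log2 change -2.14). The probe used passed the detection filter only through the MEF arrays, so this fall carries no test. The 4 probes of Cldn10 disagreed, since 2 were detected on the MEF arrays and 2 on no array. Cldn15, a claudin of the small intestine, was 0.51 lower in OKM and 0.91 lower in ES than in MEF, without reaching 2-fold, and Cldn9 had levels of 6.95, 6.96, 7.01 and 7.34 with no call.

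Among other membrane proteins of the junction, 10 of 14 were tested. From MEF to OKM 5 were higher and 2 lower, beside 16.1% and 15.8% of all tested genes, and the list median was 1.17 against 0.02. Cxadr, a virus receptor and adhesion protein of tight junctions, went from 7.14 ± 0.15 in MEF to 10.28 ± 0.14 in OKM (log2 change 3.14, adjusted p = 2e-13). Lsr, which recruits tricellular junction proteins, rose at least 2.77-fold and F11r, junctional adhesion molecule A, rose by 1.97, while Bves and Clmp fell at least 2.86-fold and 2.25-fold. From OKM to iPS only Cxadr was called, falling by 1.05, where 7.28% of all genes were higher and 5.94% lower. Against ES, iPS was higher in none of the 10 and lower in 3, beside 11.2% and 7.28% of all genes. The 3 were F11r (-2.42), Ildr1 (-1.66), a relative of Lsr, and Lsr (-1.23). All 10 were called between ES and MEF, 8 higher and 2 lower, beside 24.2% and 24.3% of all genes.

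The scaffold and polarity proteins join claudin strands to the cytoskeleton and set the place of the junction. Of 17 tested from 30 listed, 4 were higher and 2 lower in OKM than in MEF, with a median of -0.24, beside 16.1% and 15.8% of all genes. Prkcz, an atypical protein kinase of the polarity complex, was at least 9.87-fold higher, and Patj, a scaffold of the Crumbs complex, at least 4.64-fold higher. Ybx3, which binds the scaffold ZO-1, rose by 1.52, and Mpdz, a scaffold with many PDZ domains, and Amotl2, of the angiomotin family, fell by 1.70 and 1.56. Tjp3, the scaffold ZO-3, was the only one of the 17 called from OKM to iPS, where 7.28% of all genes were higher and 5.94% lower. Its log2 change was 1.13 (adjusted p = 3.83e-06), and it was 1.53 lower in iPS than in ES. Magi3, a further scaffold, was at least 1.91-fold lower in iPS than in ES. The Magi3 probe passed the detection filter only through the ES arrays, so this difference carries no test.

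Of 8 tested partners and modifiers of claudins, 3 were higher from MEF to OKM and none lower, beside 16.1% and 15.8% of all genes. St14, the membrane protease matriptase, was at least 4.8-fold higher, its inhibitor Spint1 at least 2.56-fold and the related inhibitor Spint2 at least 1.09-fold. Prss8, the protease prostasin that matriptase activates, was the 1 gene of the 8 called from OKM to iPS (log2 change 2.29, adjusted p = 7.55e-09). At that step 7.28% of all genes were higher and 5.94% lower. iPS was lower than ES for Spint2 (-1.73) and St14 (-1.01).

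The transcription factors of junction genes moved in both directions. Of 17 tested, 7 were higher and 5 lower in OKM than in MEF, beside 16.1% and 15.8% of all genes. Among the factors of surface epithelia, Tfap2c rose at least 50.6-fold, Elf3 at least 12.3-fold and Grhl3 at least 5.3-fold, while the mesenchymal factors Twist1 and Zeb2 fell by 2.39 and 2.32. Klf4 went from 8.86 ± 0.18 in MEF to below detection in OKM, at least 9.22-fold lower, and was then at least 4.08-fold higher in iPS than in OKM. Whether its probe reads a delivered copy is not given in the sources used here. Grhl2, a main regulator of claudin genes in epithelia, was detected on no MEF or OKM array and was at least 9.06-fold higher in iPS than in OKM (fitted log2 change 4.21, adjusted p = 1.37e-12), as was Ovol1, an epithelial repressor, by at least 2.02-fold. Of the factors of the epidermis, Grhl3 fell from OKM to iPS with a log2 change of -1.96, Tfap2a with -1.18, and Trp63 at least 1.62-fold. The Trp63 probe passed the detection filter only through the OKM arrays, so its fall carries no test. Against ES, iPS was higher for Tfap2a (at least 9.0-fold), Cdx2, a trophectoderm and gut factor (at least 1.87-fold), and Zeb1, a mesenchymal repressor (log2 change 1.67), and lower for Klf4 (-2.83), Grhl3 (-1.66) and Elf3 (-1.17). In all, 55 listed junction genes outside the members were tested, with 19 higher and 10 lower from MEF to OKM, where the shares of all genes were 16.1% and 15.8%. From OKM to iPS 5 were higher and 4 lower, near the shares of all genes of 7.28% and 5.94%. In iPS against ES 7 were higher and 11 lower, beside 11.2% and 7.28%.

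**Figure D3:**
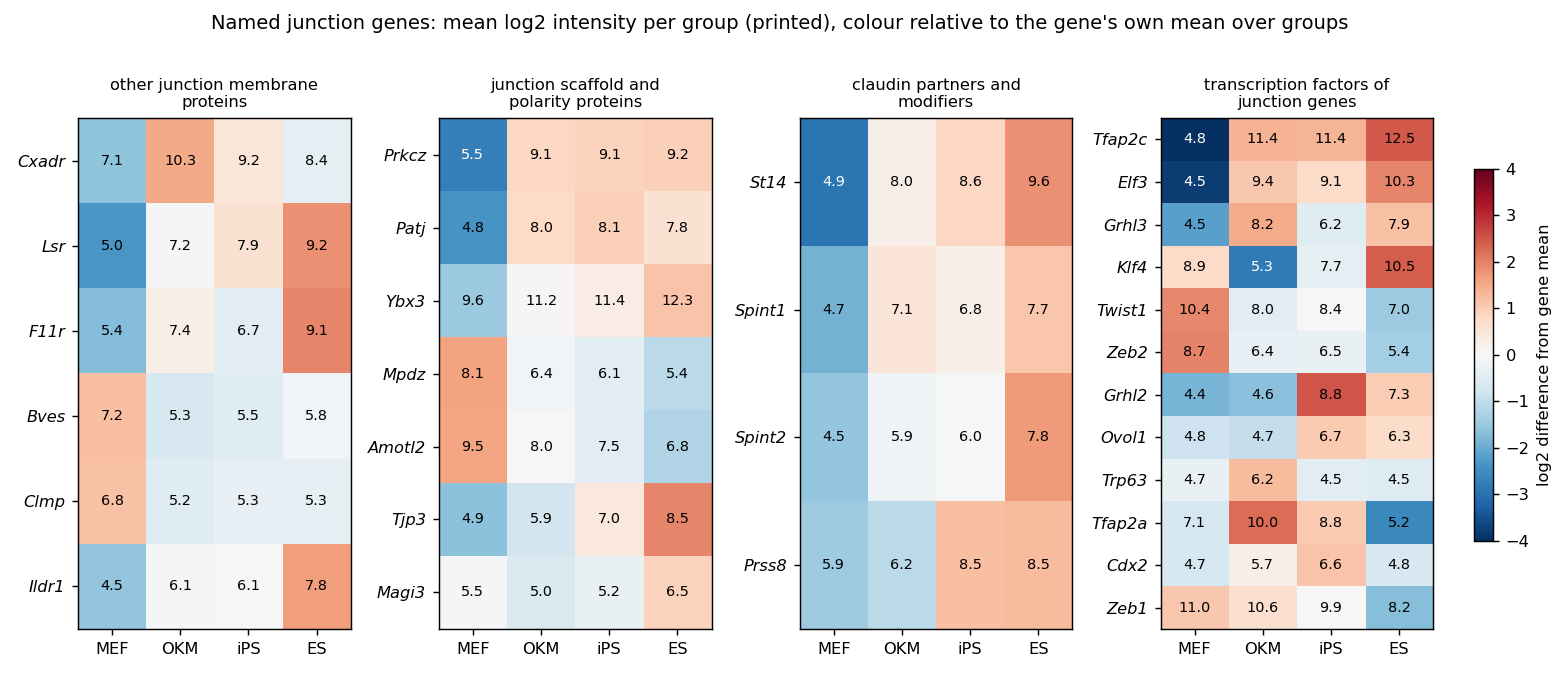
Mean log2 intensity of the named junction genes in MEF, OKM, iPS and ES (n = 4 each), printed in the cells of 1 panel per gene list, with the colour giving the log2 difference from the gene's own mean over the 4 groups. Lsr, St14 and Tfap2c are lowest in MEF and highest in ES, Twist1 and Zeb2 are highest in MEF, and Tfap2a is highest in OKM and lowest in ES.

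The genes whose log2 levels ran most like each member over the 16 arrays were taken by Pearson's correlation, a description over arrays that fall into 4 groups and share normalization. For Cldn6 they were Zfp42 (r = 0.998), Utf1 (0.996) and Etv2 (0.996). Zfp42 and Utf1 are markers of undifferentiated pluripotent cells, and Etv2 is a transcription factor of blood vessel and blood precursors. For Cldn4 they were Slc39a4, a zinc importer (0.997), Fuom, a fucose mutarotase (0.996), and Gldc, of glycine breakdown (0.996). For Cldn11 they were St3gal6, a sialyltransferase (0.998), Drp2, a relative of dystrophin (0.998), and Prr13 (0.995). St3gal6 had levels of 8.42 in MEF, 13.11 in OKM, 11.66 in iPS and 6.55 in ES, the same order as Cldn11.

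The nearest genes were Sim2, a transcription factor (0.980), followed by Gxylt2 (0.976) and Svs3b (0.976), for Cldn1, Gtse1 (0.985), Eif5a, a translation factor (0.984), and Rhox5, a homeobox gene (0.982), for Cldn3. For Cldn12 they were Nusap1, a spindle protein (0.978), Elmo3 (0.954) and Etfbkmt (0.952). The correlations were lower for Cldn7, with A130010J15Rik (0.806), Dxo (0.799) and Nsd1, a histone methyltransferase (0.787), and for Ocln, with Slc4a1ap (0.875), Plch2 (0.869) and Pla2g2c (0.868). Among the members, Cldn4 ran with Cldn3 (r = 0.906) and with Cldn6 (0.894), and Cldn11 ran with neither Cldn4 (-0.01) nor Cldn6 (-0.289).

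**Figure D4:**
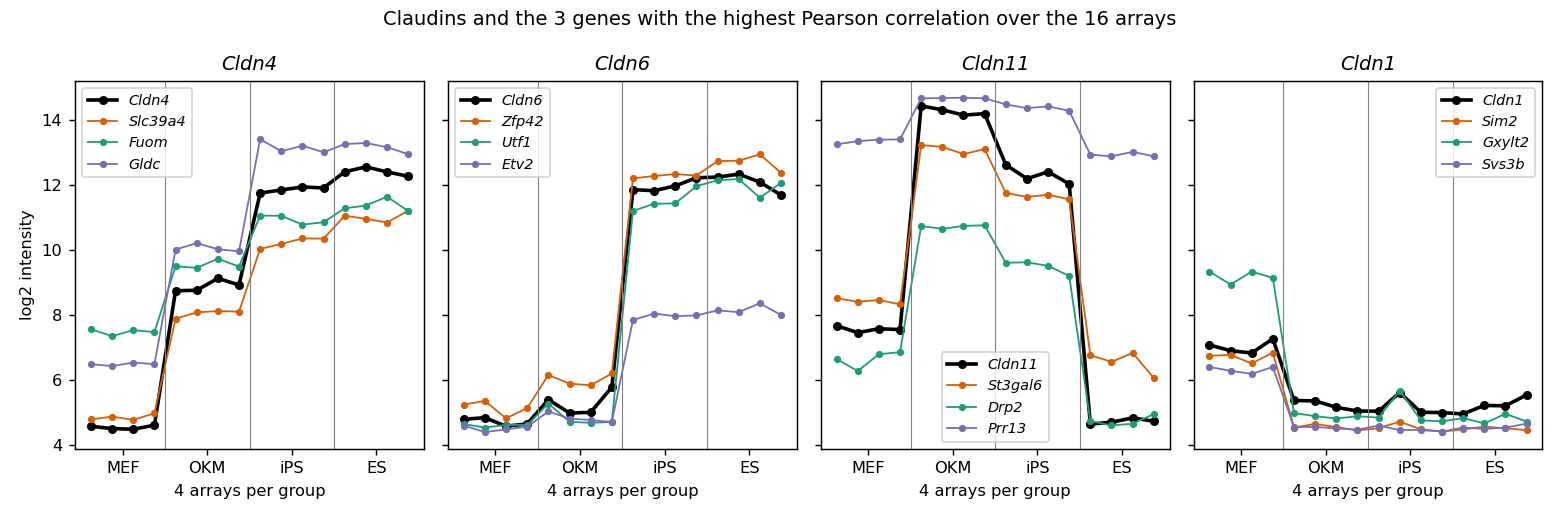
Log2 intensity on each of the 16 arrays (x axis, 4 arrays per group in MEF, OKM, iPS and ES) of Cldn4, Cldn6, Cldn11 and Cldn1 in black and of the 3 genes with the highest Pearson correlation to each in colour; lines join the arrays for the eye only. Cldn6, Zfp42, Utf1 and Etv2 are low on the MEF and OKM arrays and high on the iPS and ES arrays, and St3gal6 follows Cldn11 through its peak in OKM.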

How the data were processed

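The 9 members and all gene lists were chosen with earlier results of these data known. Per the file headers, the authors' non-normalized table gives each of 25697 probes an intensity on each of 16 arrays, background included, and beside it the detection p-value the authors deposited. GenomeStudio is the only tool in the submitters' processing notes, with no version. A normalized intensity table from the authors, 26% of it negative, served as an alternative. Raw medians were 114.7 to 134.2, and 44.9% to 49.1% of probes were detected. Gene symbols came from the platform annotation. A RefSeq table (GRCm38.p6) updated them by Entrez ID (23962 probes) or accession (9), and 23978 probes had 1 symbol while 1719 had none.

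Normalization used neqc of limma 3.58.1 (R 4.3.3), that is, normexp background correction, an offset of 16, quantile normalization and log2. Probes detected (p-value under 0.01) on at least 4 arrays were kept (13782). The brightest probe stood for its gene, which left 9455 of 16590 genes. Group means were fitted over all 16 arrays (lmFit, eBayes, 12 residual degrees of freedom), with two-sided tests and Benjamini-Hochberg adjustment within each of the 6 comparisons. The number of arrays limits the precision (median standard error 0.13). The fit was tested on simulated data.

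Named genes were all members, the other tested claudins, up to 3 called genes per junction list and direction with the largest change in each stepwise comparison, the 3 genes most like each member, and the 3 brightest of each marker list. Alternatives changed the background correction, normalization, filters, thresholds, arrays used and blocking.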

Additional observations from a re-analysis of the deposited data

Results flagged for a closer look

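In 32 sets of 4 arrays (8 genes in 4 groups), 3 held an array that stood apart from the other 3 by more than Dixon's 95% critical value for the gap over the range, which chance gives in about 1 of 20 sets. Cldn1 in iPS replicate 2 had a log2 level of 5.6, where the others had 4.99 to 5.03 (gap over range 0.934), and a raw intensity of 129.9. Cldn3 in OKM replicate 1 had 6.62, against 6.71 to 6.73 (0.852). Ocln in MEF replicate 2 had 5.39, against 4.51 to 4.60 (0.896), and a raw intensity of 127.5.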

How the results depend on the processing

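Of the 42 member comparisons tested in all 35 settings, 21 kept their direction and their side of the threshold in each. The 6 comparisons of Ocln were tested in 30 settings, since detection on 4 arrays let the filter remove it in 5, of which 4 left out an array that detected it. Without background correction, which leaves background in the values and so narrows folds of dim genes, called members numbered 3 from MEF to OKM and 3 in ES against MEF, where 19.6% and 32.9% of all genes were called. Listed junction genes called numbered 18 from MEF to OKM, 5 from OKM to iPS, 9 in iPS against ES, 21 in iPS against MEF and 13 in OKM against ES, of 55, beside 19.6%, 6.49%, 9.06%, 22.6% and 21.0% of all genes. With no minimum fold, called members numbered 6 from OKM to iPS, 3 in iPS against ES and 5 in OKM against ES, and listed junction genes 29, 40 and 43, where 54.8%, 61.9% and 73.9% of all genes were called. Without background correction Cldn4 was 2.35 and Cldn11 6.11 from MEF to OKM and Cldn6 was 4.88 from OKM to iPS, all still called. The authors' table gave 5.44 for Cldn4 from MEF to OKM, 1.5 for Ocln in iPS against MEF and 1.35 in ES against MEF, all called.

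Signs turned only where a change was uncalled in both fits, and the cause was not tested. With the first 8 arrays of the table, Cldn7 was -0.19 from MEF to OKM and 0.10 in iPS against ES, Cldn3 was -0.04 in iPS against ES and Cldn1 was -0.05 in OKM against ES. With the last 8, Cldn1 was 0.04 from OKM to iPS and 0.10 in iPS against ES, Ocln was -0.16 in iPS against ES and Cldn3 was 0.20 in OKM against ES. Cldn1 in iPS against ES was 0.10 with array weights. In OKM against ES, Cldn1 was 0.00 at offset 50 and Cldn3 was 0.01 with cyclic loess. Leaving out each array in turn (for Ocln, the 12 fits that tested it) gave -0.09 to 0.16 for Cldn7 from MEF to OKM, -0.22 to 0.04 for Cldn1 and -0.01 to 0.21 for Ocln in iPS against ES, and -0.09 to 0.11 for Cldn1 and -0.25 to 0.10 for Cldn3 in OKM against ES. Called members stayed at 5 from MEF to OKM and at 3 from OKM to iPS, and ran from 5 to 6 in iPS against MEF. The shares of all genes called in these fits were 30.1% to 32.3%, 12.7% to 13.6% and 34.9% to 37.0%.

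Replicate numbers did not pair the arrays. Of 21 same-number pairs, 4 had a correlation of deviations over 0.1 (-0.42 to 0.55), and 4 arrays correlated best with their own number. The first component of the deviations (25.8% of variance) separated the first 8 from the last 8 arrays of the table, with 2 arrays of each group in each. With place in the table as a block, called members numbered 5, 3 and 1 in the stepwise comparisons, beside 31.9%, 13.2% and 18.5% of all genes. With a replicate block, called members again numbered 5, 3 and 1, as without it, and listed junction genes 29, 9 and 16. The shares of all genes were then 31.9%, 13.2% and 17.7%. Under the replicate block Cldn1 was 0.09 in iPS against ES and Cldn3 was 0.11 in OKM against ES, both uncalled.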

Other observations

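The marker lists not described above also differed between groups, as summed linear levels. Trophectoderm markers, 9 of 12 tested, ran from 444 to 472 in MEF, 4015 to 4260 in OKM, 5381 to 6682 in iPS and 6384 to 7612 in ES, with Tfap2c, Tfap2a and Rhox9 the brightest. All 9 were detected on every iPS array, while Cdx2, Gata3, Plac1 and Tfap2a were detected on no ES array. Tfap2c, the brightest in both groups, had log2 levels of 11.37 in iPS and 12.46 in ES. Gene by gene, 6 of the 9 were called higher and 1 lower in iPS than in ES, beside 11.2% and 7.28% of all genes. The list median of that comparison was 1.67, against -0.04 for all tested genes. Primitive endoderm markers, 6 of 10 tested, with Col4a1, Dab2 and Lama1 the brightest, ran from 16197 to 17867 in MEF, 7184 to 7565 in OKM, 3242 to 4894 in iPS and 2392 to 3107 in ES. Col4a1, the brightest in MEF, had log2 levels of 13.58, 10.67, 10.17 and 9.43 in that order. Lama1 went the other way, with 6.35, 6.37, 7.73 and 10.46, and Sox7 was undetected in MEF only. By gene, 0 were called higher and 3 lower from MEF to OKM, beside 16.1% and 15.8% of all genes. From OKM to iPS 3 were higher and 1 lower, beside 7.28% and 5.94%.

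Endothelial markers, 12 of 16 tested, ran from 2559 to 2788 in MEF, 4845 to 5355 in OKM, 5959 to 6502 in iPS and 8036 to 8159 in ES. Their brightest were Egfl7, Pecam1, at 4.59 in MEF and 10.77 in OKM on the log2 scale, and Eng. From MEF to OKM, 6 of the 12 were called higher and 2 lower, beside 16.1% and 15.8% of all genes. Flt1 fell from 10.27 in MEF to 7.64 in OKM and 5.48 in ES. Emcn, at 6.89 in MEF, was detected on no array of the other groups. Blood and macrophage markers, 7 of 11 tested, ran from 14048 to 14915 in MEF, 874 to 1455 in OKM, 701 to 851 in iPS and 2429 to 4243 in ES. Lyz2, a lysozyme of macrophages, had 13.31, 9.24, 9.04 and 11.65 in that order. Hba-a1, an alpha globin, was detected on all OKM and iPS arrays and on no MEF array, and C1qc, a complement protein of macrophages, on the MEF arrays only.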
